A study of Mus musculus with 2 samples.

Results

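The 55 genes described here build and run the thiol and superoxide defences of the cell. They were taken by name from the platform annotation: all glutathione transferases (Gsta to Gstz and the microsomal Mgst genes), glutathione peroxidases (Gpx), peroxiredoxins (Prdx), sulfiredoxin (Srxn1) and thioredoxin reductases (Txnrd), with Sod1, Sod2, Sod3, Cat, Gclc, Gclm, Gss, Txn1, Txn2, Nqo1, Hmox1, Hmox2, Nfe2l2 and Keap1. They are 55 of 19057 genes with a single symbol, and their 100 probes are among the 45281 on each array. Gsr, glutathione reductase, was not analysed here.

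Hippocampi of male ICR mice, an outbred stock, were profiled on 2 Illumina bead arrays. The CeCl3 array carries RNA from animals dosed into the stomach every day for 90 days with cerium chloride, a salt of a lanthanide metal, and the label of that sample lists 3 daily doses together (0.5 mg, 1 mg and 2 mg per kg), so its dose is unknown. The control array carries RNA from animals that received purified water. Both labels give an age of 4 weeks, and both groups were kept in the same housing. The study held 75 mice in a group and asked what the exposure does to memory and to hippocampal transcription, but the sources used here do not say how many mice each array stands for. With 1 array per group there is no replicate check and no test: every interval below is a 95% bead interval, which covers the scatter of the beads of a probe within an array and nothing else. Whether the deposited bead errors are on the scale of the intensities is not stated, so the intervals carry that doubt too.

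The arrays differed in ways that touch every comparison. Each array sat on its own BeadChip, so chip and group cannot be told apart. Although both samples are labelled male, Xist, the RNA that coats the silenced X chromosome of female cells, was detected by 0 of its 4 probes after CeCl3 and by 4 of 4 in the control, where it was at least 14.5-fold brighter. Of the Y-linked genes, Eif2s3y was detected by 1 of 2 probes on the CeCl3 array and 0 of 2 on the control array, and neither Kdm5d (2 probes) nor Uty (4 probes) was detected on either, so the sex of the samples, or a swap, cannot be settled here. With 2 arrays in all, no result can be given without either. A probe counted as detected when its detection p-value was under 0.01, which held for 38.5% of CeCl3 probes and 36.3% of control probes. Hippocampal neuron markers were present: 10 of 16 were detected, among them the synaptic vesicle protein Syt1 with log2 signals of 14.72 on both arrays, while C1ql3, Calb1, Cpne7, Lct, Neurod6 and Snap25 were not.

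As background, superoxide leaks from respiration and from oxidases. Superoxide dismutases turn it into hydrogen peroxide, which catalase, glutathione peroxidases and peroxiredoxins then reduce. The peroxidases draw their electrons from glutathione or thioredoxin, both recharged with NADPH, and glutathione transferases couple glutathione to lipid aldehydes and foreign compounds. The transcription factor Nrf2 (Nfe2l2), held in check by Keap1, switches on many of these genes when thiols are oxidised. Neurons and glia share the system unequally, with astrocytes as the main source of glutathione precursors.

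Of the 55 genes, 42 were detected, each of them on both arrays, on 62 probes seen on both arrays and 3 seen on the CeCl3 array alone. The other 13 had no detected probe: Gclc, Gpx5, Gpx6, Gsta1, Gsta2, Gstm3, Gstp3, Gstt4, Hmox1, Mgst2, Nfe2l2, Txn1 and Txnrd1. Because Txn1, the cytosolic thioredoxin of all cells, is in that list on all of its 3 probes, a missing signal here does not show that a transcript is missing. Txn1 read intensities of 15.5, 15.2 and -3.87 (CeCl3) and 20.6, 16.5 and -0.0856 (control).

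The differences between the arrays were small. None of the 42 detected genes was 2-fold higher or 2-fold lower on the CeCl3 array (0 of 42 each), where 2.77% of all 10416 detected named genes were 2-fold higher and 1.95% were 2-fold lower. At 1.5-fold, 0 were higher and 1, Txnrd3, was lower, against 6.61% and 6.12% of all named genes. Those shares hold many dim genes seen on 1 array. Of the 9480 named genes detected on both arrays, as the 42 were, 0.485% were 2-fold higher and 0.496% 2-fold lower. At 1.5-fold, 2.996% of these 9480 genes were higher and 3.597% lower, against 0 and 1 of the 42. The median absolute log2 difference was 0.181 for the 42 genes and 0.194 for all named genes, so the 2 sets differed by similar amounts. The lower side held more members: 28 of 42 (66.7%) were below 0 against 55.8% of all named genes, and 14 were above 0 against 44.1%. Among named genes detected on both arrays, these shares were 57.7% below 0 and 42.2% above. The median log2 difference (CeCl3 minus control) was -0.13 for the 42 genes and -0.04 for all named genes. The bead interval lay below 0 for 8 genes (19.0%, against 14.8% of all named genes) and above 0 for 1 gene (2.38%, against 10.5%). Of the named genes detected on both arrays, 13.9% had intervals below 0 and 8.53% above. Each gene stands here by its brightest probe. With the mean of its detected probes instead, 61.9% of the 42 lay below 0 against 53.8% of all named genes. By interval, 5 genes then lay below 0 (15.1% of all named genes) and 4 above (12.8%). Those 4 include Gsto2 and Srxn1, whose means each hold a probe not detected on the control array.

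Those 8 were Txnrd3, Sod3, Gclm, Txn2, Prdx2, Gstm2, Gstk1 and Gstp1, with log2 differences of -0.61 to -0.27, or 1.20-fold to 1.53-fold lower on the CeCl3 array. Gpx2 was the 1 gene above 0, at 0.58. With the mean of probes, Gclm, Sod3, Txn2 and Txnrd3 stayed below and Gpx2 above, the calls of Gstk1, Gstp1 and Prdx2 ended, Gstm2 turned to 0.19, Txnrd2 joined below, and Gsto2, Mgst3 and Srxn1 joined above. If the bead errors were on the scale of the second table described next, the Sod3 call would end and Mgst3 would join above. By their brightest probes the remaining 33 genes lay between -0.40 and 0.43 with intervals that held 0. In a second deposited table, whose values appear not to be normalized between arrays, the median of all named genes moved to 0.18 and that of the 42 genes to 0.09. In it 38.1% of the 42 lay below 0, against 27.5% of all named genes. Relative to all named genes the 42 lay at -0.09 in both tables, so the signs below are read against that shift. In that table the difference of Gpx2 stayed above 0 and those of the 8 stayed below 0. It holds values of the same 2 arrays, so the kept signs are not an independent check.

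**Figure D1:**
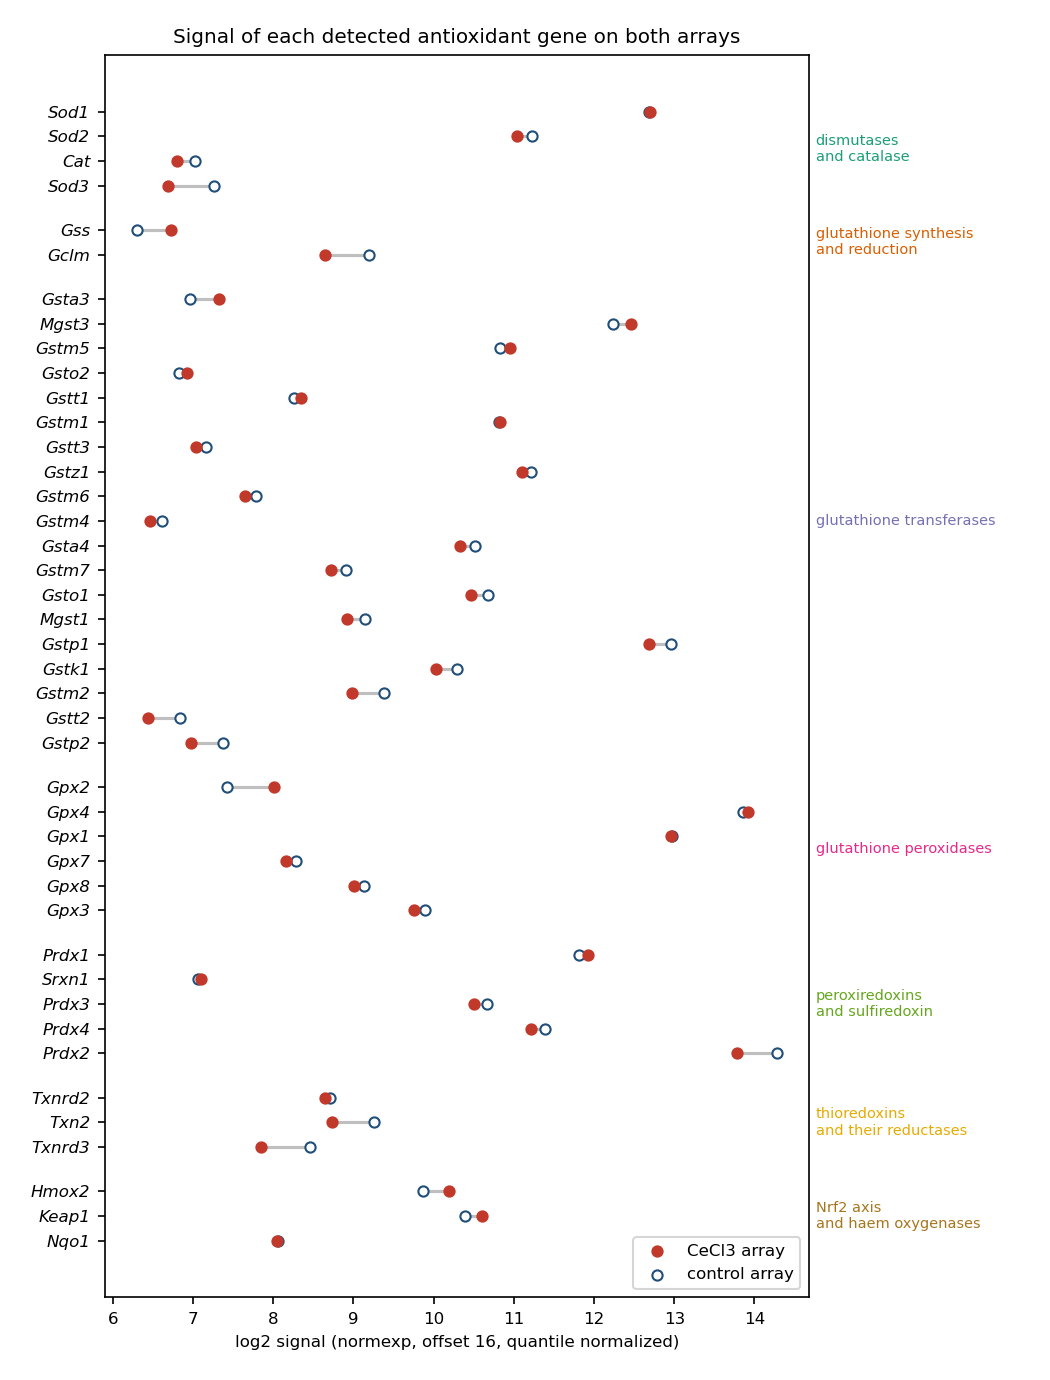
Log2 signal (x axis) of the 42 detected genes, 1 row per gene and grouped by family, on the CeCl3 array (filled red) and the control array (open blue). The grey bar is the difference, and it is short in nearly all rows: the longest ones, in Txnrd3, Gpx2 and Sod3, span 0.61, 0.58 and 0.57.

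**Figure D2:**
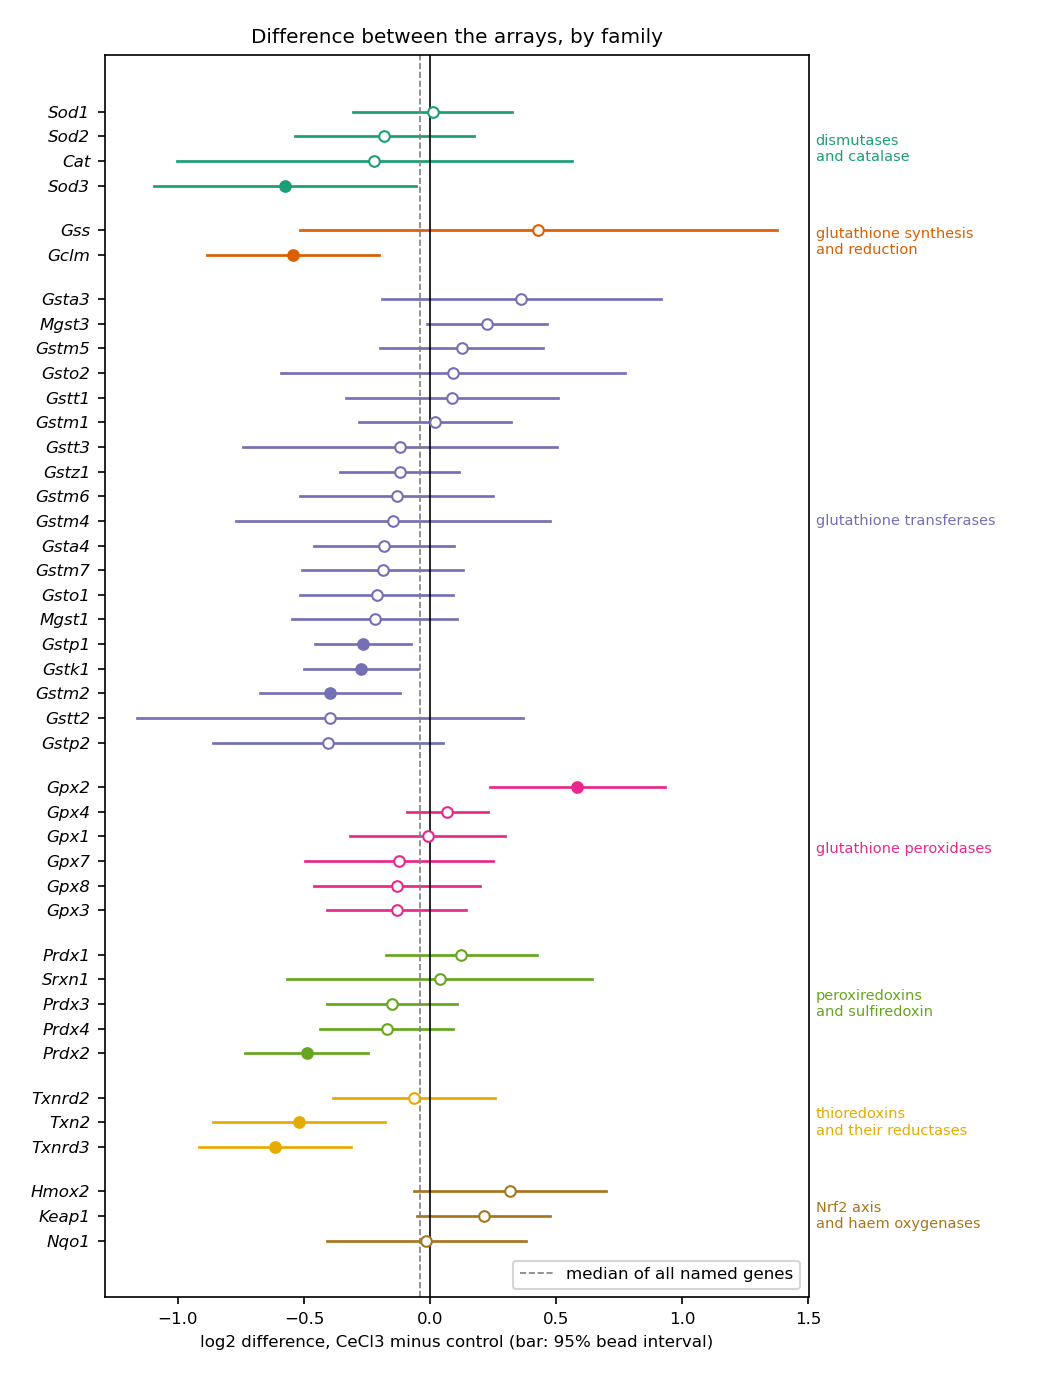
Log2 difference, CeCl3 minus control (x axis), of the 42 detected genes by family, with 95% bead intervals as bars and filled points where the interval lies apart from 0. There are 9 filled points, 8 of them left of 0, and the dashed line marks the median of all named genes at -0.04.

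Many Nrf2 target genes carry an antioxidant response element in their regulatory DNA, and its core was looked for in the promoters. The core TGACNNNGC was searched on both strands in RefSeq promoter windows (GRCm38.p6, 250 bases before to 50 after each gene start) and matched in 10 of the 50 genes that had a window (20.0%), against 14.0% of the 27025 genes in the table. By window, it was in 10 of 66 (15.2%) against 12.4% of all 32851. Among members detected on the arrays, 8 of 39 with a window held it. The stretches below are shown because Gclm is the one holder with an interval apart from 0, and because the other holders include a peroxidase, its repair enzyme and a transferase. Capitals mark the core or its reverse complement, and each is read 5′ to 3′ on the gene's strand.
Gclm, chr3:122245407-122245447, + strand: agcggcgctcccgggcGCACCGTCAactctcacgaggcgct
Prdx1, chr4:116685450-116685490, + strand: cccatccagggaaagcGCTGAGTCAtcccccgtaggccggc
Srxn1, chr2:152105536-152105573, + strand: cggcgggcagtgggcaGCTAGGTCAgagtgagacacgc
Gsta3, chr1:21240448-21240488, + strand: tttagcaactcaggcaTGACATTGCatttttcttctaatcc
The 8 detected holders, which also include Sod1, Gstm5, Gstm7 and Mgst1, did not share a direction: 5 were above 0 and 3 below, with a median of 0.02. The 31 detected members with a window and no match had a median of -0.13, with 9 above 0 and 22 below. A match is a description of letters, and the window leaves out distal elements.

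Superoxide is first met by the dismutases. Sod1, the cytosolic copper and zinc enzyme, had log2 signals of 12.69 (CeCl3) and 12.68 (control), a difference of 0.01 (-0.31 to 0.32), and its dim second probe lay at 0.23 (-0.43 to 0.89). Sod2, the mitochondrial manganese enzyme, had 11.04 and 11.22, a difference of -0.18 (-0.53 to 0.17). Neither gene had an interval apart from 0.

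Sod3, the secreted dismutase of vessel walls and the extracellular space, was the exception. It read an intensity of 90.5 (CeCl3) and 140.8 (control), log2 signals of 6.69 and 7.26, and the log2 difference was -0.57 (-1.10 to -0.05). The probe was dim and its interval wide, and with bead errors rescaled to the second table it ran from -1.27 to 0.12. Cat, catalase, lay at 6.80 and 7.03, a difference of -0.22 with an interval that held 0. The family median was -0.20, or -0.16 relative to all named genes and -0.15 so in the second table.

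Glutathione is made by glutamate-cysteine ligase, a catalytic subunit (Gclc) with a modifier subunit (Gclm), and then by glutathione synthetase (Gss). Gclm was lower on the CeCl3 array, with an intensity of 389 there and 573 on the control array. Its log2 signals were 8.65 and 9.19, a difference of -0.54 (-0.88 to -0.20), or 1.46-fold lower, and 7.08% of all named genes lay as low. That share holds dim genes seen on 1 array. Among named genes detected on both arrays, 3.597% were 1.5-fold lower. That Gclm value rests on 1 probe.

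Gss leaned the other way on each detected probe. The brightest had log2 signals of 6.73 with CeCl3 and 6.30 in the control, a difference of 0.43 (-0.52 to 1.37), another lay at 0.31 (-0.56 to 1.17), and the last passed detection only on the CeCl3 side, at least 1.37-fold higher. All 3 Gss probes are dim and all 3 intervals held 0. Gclc, the catalytic partner of Gclm, read intensities of 4.39 and 4.51, not detected, so the ligase was measured through its modifier alone.

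The glutathione transferases were the largest family, with 25 genes and 19 detected. Of these 13 were below 0 and 6 above, against 55.8% and 44.1% of all named genes. The median was -0.15 (-0.11 relative to all named genes, -0.13 so in the second table). By interval, 3 were below 0 and 0 above, against 14.8% and 10.5% of all named genes. Several members are neighbours: in RefSeq, Gstm5, Gstm7, Gstm6, Gstm3, Gstm2, Gstm1 and Gstm4 follow each other with no other coding gene between them, as do Gstt3, Gstt1, Gstt4 and Gstt2, and Gstp1, Gstp2 and Gstp3. Probes of such close copies may share targets, and their separate values are uncertain for that reason.

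Gstp1, the pi-class enzyme long used as a marker of mature oligodendrocytes, was lower on the CeCl3 array. Its brightest probe had an intensity of 6573 there and 7881 on the control array, log2 signals of 12.69 and 12.95, and a difference of -0.27 (-0.46 to -0.08). A second probe lay at -0.05 (-0.40 to 0.31), and the mean of both at -0.16 (-0.36 to 0.04) held 0. Its neighbour Gstp2 lay at 6.97 and 7.38, a difference of -0.40 (-0.86 to 0.05). Of 10 detected oligodendrocyte markers, 7 were below 0 and 3 above, from -0.70 to 0.54. Their median was -0.14 (-0.10 relative to all named genes, -0.20 so in the second table). By interval, 5 of the 10 were below 0 and 0 above, against 14.8% and 10.5% of all named genes. Their summed linear signal was 87451 for CeCl3 and 105345 for the control, and Gjc3 alone of the list was not detected. The myelin junction gene Cldn11 lay at -0.42 (-0.57 to -0.27) and Mbp at -0.26 (-0.43 to -0.10). Their part in the Gstp1 difference was not tested.

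The mu class gave no single direction. Gstm2 was measured by 3 probes seen on both arrays, which contradicted each other. The brightest had log2 signals of 8.98 (CeCl3) and 9.38 (control), a difference of -0.40 (-0.67 to -0.12). The next, nearly as bright, had 9.28 and 8.93, a difference of 0.35 (0.06 to 0.64), and the dimmest lay at 0.62 (0.09 to 1.15). With the mean of the 3 probes Gstm2 lay at 0.19 (-0.03 to 0.41), so its call and its direction both end. Gstm1 lay at 0.02 (-0.28 to 0.32) and Gstm5, a brain-rich form, at 0.12 (-0.20 to 0.45). Gstm4, Gstm6 and Gstm7 lay at -0.15, -0.13 and -0.19 with intervals that held 0.

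Gstk1, the kappa-class enzyme of mitochondria and peroxisomes, had log2 signals of 10.02 (CeCl3) and 10.30 (control), a difference of -0.27 (-0.50 to -0.05). Its second probe lay at -0.04 (-0.38 to 0.31), and the mean of both at -0.15 (-0.36 to 0.05) held 0. The alpha class went both ways, with Gsta4, which clears the lipid aldehyde 4-hydroxynonenal, at -0.18 (-0.46 to 0.10) and Gsta3 at 0.36 (-0.19 to 0.91). Neither alpha gene had an interval apart from 0.

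The omega gene Gsto1 lay at -0.21 (-0.51 to 0.09), the zeta gene Gstz1, which acts in tyrosine breakdown, at -0.12 (-0.36 to 0.12), and the theta genes Gstt1, Gstt2 and Gstt3 at 0.09, -0.40 and -0.12. Gsto2 lay at 0.09 (-0.59 to 0.77) on its brightest probe, and its second, dim probe passed detection only on the CeCl3 side, at least 1.07-fold higher. The mean of both Gsto2 probes, 0.78 (0.18 to 1.38), had an interval above 0 and holds that undetected control value. The microsomal forms sit in membranes. Mgst3 had log2 signals of 12.46 with CeCl3 and 12.23 in the control, a difference of 0.22 (-0.01 to 0.46), and its second probe lay at 0.34 (-0.04 to 0.71). The mean of both Mgst3 probes, 0.28 (0.06 to 0.50), had an interval above 0. Mgst1 lay at -0.22 (-0.55 to 0.11) and -0.44 (-1.13 to 0.24), so the microsomal genes pointed in opposite directions.

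Glutathione peroxidases reduce hydrogen and lipid peroxides. In mammals Gpx1, Gpx2, Gpx3 and Gpx4 carry selenocysteine in the active site, while Gpx7 and Gpx8 of the endoplasmic reticulum carry cysteine. Gpx2, best known from the gut epithelium, was higher on the CeCl3 array, with an intensity of 246 there and 159.6 on the control array. The log2 signals were 8.01 and 7.43, the difference 0.58 (0.24 to 0.93), and 6.61% of all named genes lay as high. It rests on 1 probe, and Gpx2 was the highest of the 42 genes.

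The other peroxidases showed no such difference. Gpx1, the abundant cytosolic form, had log2 signals of 12.96 for CeCl3 and 12.97 for the control, a difference of -0.01 (-0.32 to 0.30). Gpx4, which reduces lipid peroxides within membranes and guards against ferroptosis, had 13.92 and 13.85 on its brightest probe, a difference of 0.07 (-0.09 to 0.23), and 0.29 (-0.04 to 0.61) and -0.13 (-0.50 to 0.24) on the other probes. Gpx3, the secreted form, lay at -0.13 (-0.41 to 0.14) and Gpx7 at -0.12 (-0.49 to 0.25). Gpx8 lay at -0.13 (-0.46 to 0.20), -0.48 (-0.91 to -0.05) and 0.07 (-0.38 to 0.51) on its probes. The family median was -0.07, or -0.03 relative to all named genes and -0.07 so in the second table.

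Peroxiredoxins remove the bulk of cellular peroxide and are recharged by thioredoxin. Prdx2, the neuronal and erythrocyte form, had an intensity of 13932 (CeCl3) and 19336 (control). The log2 signals were 13.79 and 14.28, the difference -0.49 (-0.73 to -0.25), or 1.40-fold lower. Bright genes differed little between the arrays: of the 326 named genes with a mean log2 signal of 13 or more, Prdx2 had only 2 below it, with a median of -0.02 over all of them, a comparison chosen after its value was seen. In the second table the Prdx2 difference was -0.43. A dim second probe, however, had log2 signals of 7.82 and 7.78, a difference of 0.04 (-0.45 to 0.53), and the mean of both probes, -0.22 (-0.50 to 0.05), held 0.

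Red cells also carry Prdx2, and erythrocyte genes were among the marker lists. Of 5 detected, 2 had intervals above 0 and 0 below, against 10.5% and 14.8% of all named genes. Their summed linear signal was 136513 (CeCl3) and 135366 (control), and Hbb-b2 was not detected. The globin genes Hbb-bs and Hba-a1 lay at 0.19 (0.06 to 0.31) and -0.11 (-0.28 to 0.06). Their part in the Prdx2 difference was not tested.

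Prdx1, the other cytosolic form and a known Nrf2 target, had log2 signals of 11.93 with CeCl3 and 11.81 in the control, a difference of 0.12 (-0.18 to 0.42). The mitochondrial Prdx3 lay at -0.15 (-0.41 to 0.11) and the Prdx4 of the endoplasmic reticulum at -0.17 (-0.44 to 0.09). Srxn1, sulfiredoxin, which repairs over-oxidised peroxiredoxins, was above 0 on all 3 detected probes, at 0.04 (-0.57 to 0.64) and 0.17 (-0.61 to 0.95) on those seen on both arrays. The last of these, at intensities of 63.8 and 1.08, passed detection only on the CeCl3 side, at least 1.08-fold higher, with a measured difference of 1.52 (0.31 to 2.73). The mean of the 3 Srxn1 probes, 0.58 (0.06 to 1.10), had an interval above 0 and holds that undetected control value. The family median was -0.15, with 3 genes below 0 and 2 above, against 55.8% and 44.1% of all named genes.

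The thioredoxin genes had the lowest family median, -0.52, or -0.48 relative to all named genes and -0.52 so in the second table, but it rests on 3 detected genes of 5 and was -0.14 with no filter on dim probes. Txn2, the mitochondrial thioredoxin that serves Prdx3, had an intensity of 414 for CeCl3 and 599 for the control. The log2 signals were 8.74 and 9.26, the difference -0.52 (-0.86 to -0.18), or 1.43-fold lower. A second Txn2 probe, designed on a cDNA clone, was not detected on either array. It read intensities of 45.3 (CeCl3, detection p-value 0.0118) and -1.60 (control), a difference of 1.17 (-0.05 to 2.39) in the other direction. Txnrd3, the thioredoxin-glutathione reductase that is best known from testis, had intensities of 217.4 and 339, and log2 signals of 7.84 and 8.46. Its difference of -0.61 (-0.92 to -0.31), or 1.53-fold lower, was the lowest of the 42 genes, and 5.56% of all named genes lay as low. Among named genes detected on both arrays, 3.597% were 1.5-fold lower.

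Txnrd2, the mitochondrial reductase that recharges Txn2, depended on the probe. The RefSeq probe had log2 signals of 8.64 (CeCl3) and 8.71 (control), a difference of -0.06 (-0.39 to 0.26). A dimmer probe designed on a cDNA clone had 7.50 and 8.25, a difference of -0.75 (-1.12 to -0.38), and the mean of both was -0.41 (-0.65 to -0.16). Both Txnrd2 probes and the single detected probes of Txn2 and Txnrd3 were thus below 0, while the undetected Txn2 probe lay at 1.17. Txnrd1, the cytosolic reductase, was not detected, with intensities of 7.13 and 6.28.

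Among the members, Keap1 was the only detected regulator of the system, and its interval held 0. Keap1, the sensor that marks Nrf2 for degradation, was measured by 4 probes seen on both arrays, and all were above 0. The brightest had log2 signals of 10.60 (CeCl3) and 10.39 (control), a difference of 0.21 (-0.05 to 0.47), and the others lay at 0.11 (-0.24 to 0.47), 0.23 (-0.15 to 0.61) and 0.10 (-0.34 to 0.54). The 4 probes lay within 0.13 of each other, yet each interval held 0. Hmox2, the constitutive haem oxygenase of neurons, had 10.19 and 9.87, a difference of 0.32 (-0.07 to 0.70).

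Nrf2 itself and its inducible target Hmox1 could not be compared. The Nfe2l2 probes had intensities of 33.5 and 2.98 (CeCl3) and 51.8 and 40.0 (control), with detection p-values of 0.0256 and 0.384 against 0.0182 and 0.0385. At a detection limit of 0.05 the brighter Nfe2l2 probe would count on both arrays. Hmox1 read intensities of -7.20 and -14.1, at background. Nqo1, the quinone reductase used as a readout of Nrf2, lay at 8.05 and 8.06, a difference of -0.02 (-0.41 to 0.38). Some genes in use as readouts of Nrf2 activity are set side by side here, a selection that is not complete. Gclm was low on its 1 probe, and Nqo1 and Prdx1 had intervals that held 0. Srxn1 had an interval that held 0 on its brightest probe and one above 0 with the mean of its probes. Hmox1 and Txnrd1 were not detected. Gpx2, at 0.58 (0.24 to 0.93), is outside this selection.

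**Figure D3:**
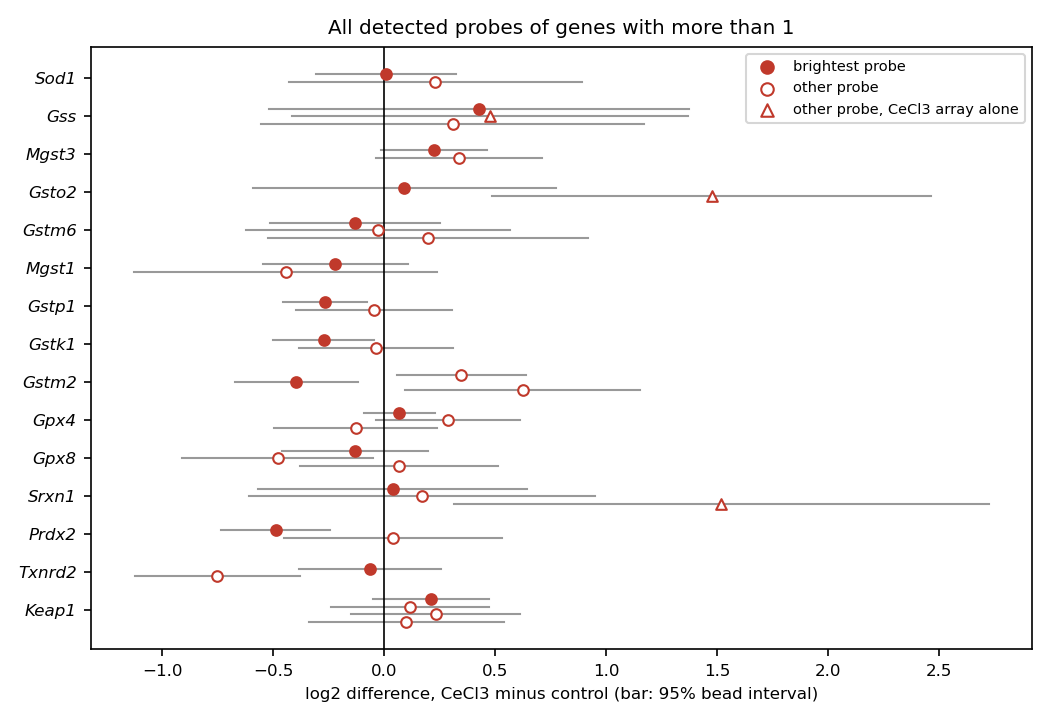
Log2 difference, CeCl3 minus control (x axis), of each detected probe of the 15 genes with more than 1, with 95% bead intervals as bars. Filled points are the brightest probes, open points the others, and triangles the 3 probes detected on the CeCl3 array alone. The probes of Keap1 and Gss cluster right of 0, while those of Gstm2 lie on both sides.

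Different probes of a gene read different stretches of its transcripts and are the one internal check in these data. Of the 15 genes with 2 or more detected probes, 10 (66.7%) had all probes on the same side of 0, against 47.1% of 3652 named genes. With exactly 2 probes it was 7 of 8 genes, against 55.9% of 2505. Among the 10, Gss, Gsto2 and Srxn1 each hold a probe that passed detection on the CeCl3 array alone. Such a probe enters the count because it is high there, so its direction was favoured by the filter. Gsto2 is also among the 7, and the shares of all named genes hold such probes too. Gstm2 was the one gene with probes whose intervals lay on opposite sides of 0. Of the 9 genes with an interval apart from 0, Gclm, Gpx2, Sod3, Txn2 and Txnrd3 had a single detected probe, so this check does not reach them. For the other 4, Gstk1 and Gstp1 had a second probe below 0, Prdx2 had one at 0.04 and Gstm2 had both others above 0.

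**Figure D4:**
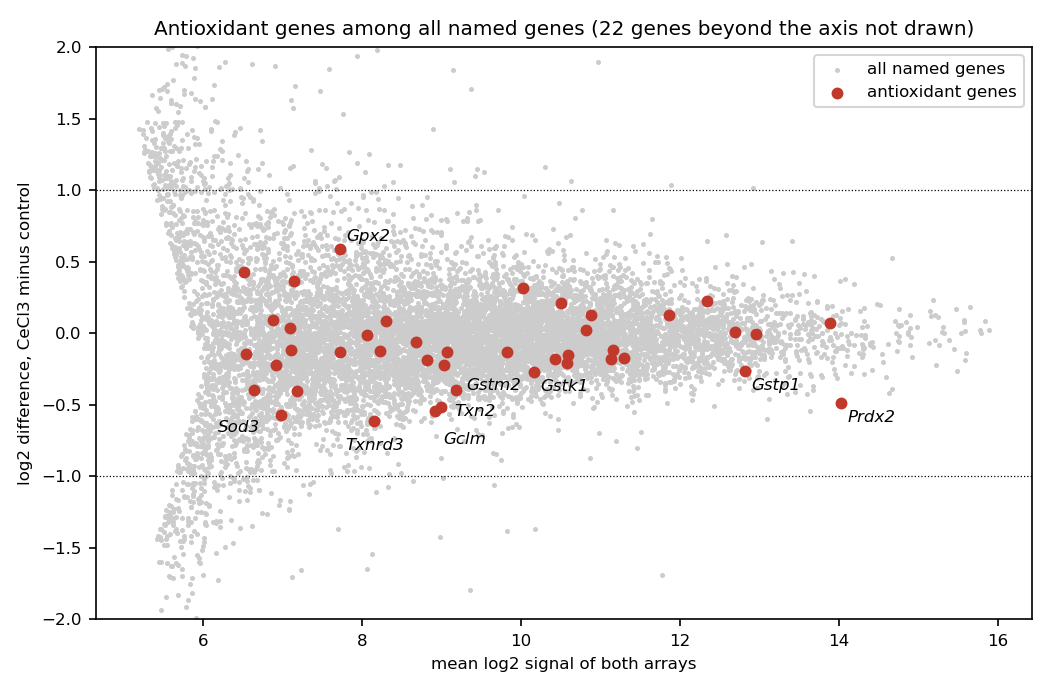
Log2 difference, CeCl3 minus control (y axis), against the mean log2 signal of both arrays (x axis) for all 10416 detected named genes (grey) and the 42 antioxidant genes (red). The 9 genes with an interval apart from 0 are named, dotted lines mark 2-fold, and 22 genes lie beyond the y axis. All red points lie within the dotted lines, and Prdx2 lies below nearly all genes of its brightness.

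Lists of genes that feed or use the system are set against the 10.5% of all named genes with an interval above 0 and the 14.8% below. Of 14 detected genes of glutathione turnover and glutaredoxins, 2 had intervals above 0 and 2 below, with a median of -0.13. Ggct, which breaks down gamma-glutamyl peptides, led on the higher side, with log2 signals of 8.74 with CeCl3 and 8.05 in the control and a difference of 0.69 (0.29 to 1.09). Of 11 genes of NADPH supply 3 had intervals above 0 and 0 below, with a median of -0.01. Among them was Nnt, the mitochondrial transhydrogenase that makes NADPH for Txnrd2, at 0.61 (0.02 to 1.19). Of 10 thioredoxin partners and methionine sulfoxide reductases, 4 had intervals below 0 and 0 above, with a median of -0.16, and none reached 0.5 on either side.

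Selenium links several members, since the glutathione peroxidases named above and the thioredoxin reductases are selenoproteins. The 6 detected selenoprotein members were split, with 2 above 0 and 4 below and a median of -0.04. Of 17 other selenoproteins and selenium-handling genes, 6 had intervals below 0 and 1 above, with a median of -0.12 that was -0.08 relative to all named genes and -0.23 so in the second table. Sephs2, which makes the selenium donor for selenocysteine, lay at 7.74 for CeCl3 and 8.47 for the control, a difference of -0.74 (-1.15 to -0.32). Of 17 other Nrf2-linked genes 5 had intervals below 0 and 1 above, with a median of -0.07. The 1 above was the haem transporter Slc48a1, at 0.60 (0.30 to 0.89).

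A list of superoxide and peroxide sources and of copper delivery to Sod1 had 4 of 10 detected genes with intervals below 0 and 0 above, with a median of -0.15. Named after their values were seen, the 4 were the sources Xdh and Maob, of 7 detected sources, and the copper carriers Ccs and Atox1, of 3. Xdh, xanthine dehydrogenase, lay at 8.01 (CeCl3) and 8.57 (control), a difference of -0.56 (-0.88 to -0.23). Cybb, the oxidase subunit of phagocytes, was not detected, and neither were Nox1, Nox3 or Nox4. Neutrophil markers stood out in the other direction. Of 10, 8 were detected, with a summed linear signal of 2604 (CeCl3) and 552 (control), and 4 were shown to be 2-fold higher. S100a8 and Lcn2 were detected on both arrays, at 2.44 (2.12 to 2.77) and 1.58 (0.99 to 2.17). The other 6 were seen on the CeCl3 array alone, where Ltf was at least 3.83-fold, S100a9 2.49-fold, Retnlg 1.89-fold, Ngp 1.54-fold and Camp 1.38-fold higher, and Mpo has no bound above 1. Cxcr2 and Elane were not detected on either array. Whether such cells carried part of the signal of the antioxidant genes was not tested.

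**Figure D5:**
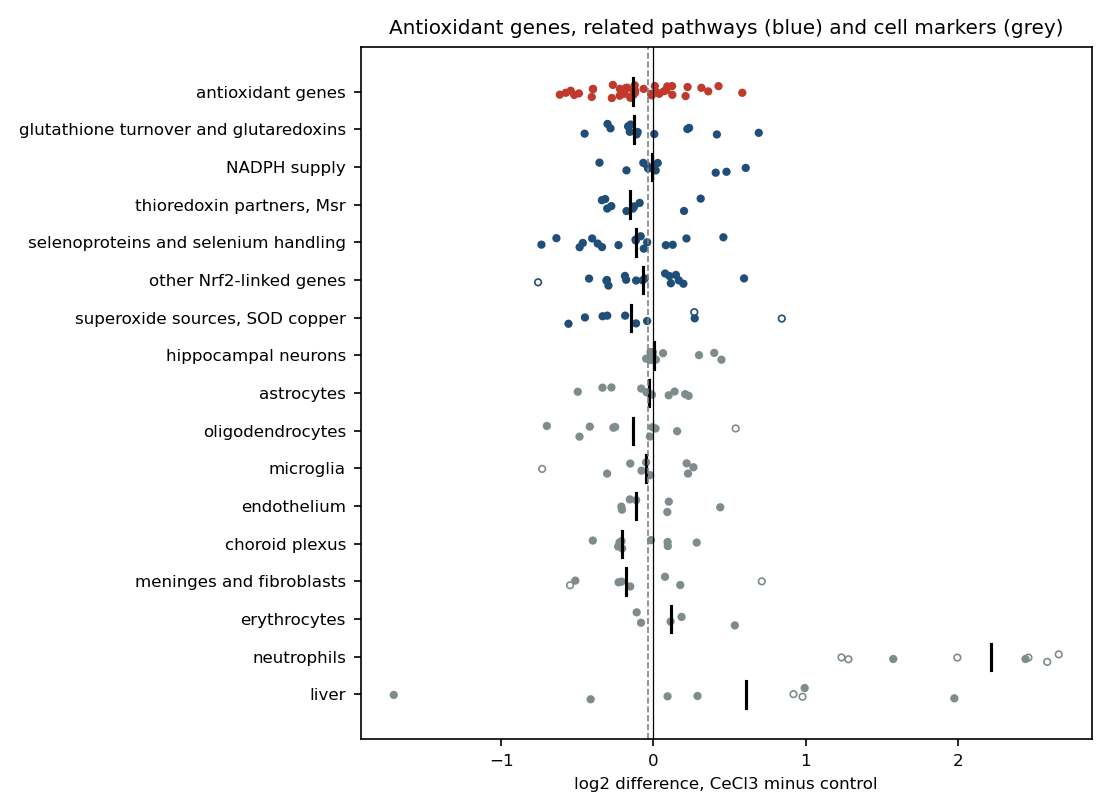
Log2 difference, CeCl3 minus control (x axis), of each detected gene of the antioxidant list (red), 6 related pathway lists (blue) and 10 marker lists (grey), with open points for genes detected on 1 array, black ticks for medians and a dashed line for all named genes. The antioxidant and pathway medians lie between -0.16 and -0.01 (in the second table, -0.06 for the selenium list and above 0 for the others), while the neutrophil median is drawn at 2.22 and is 1.12 with genes seen on 1 array held at their bound.

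Among the other markers, astrocyte genes had a median of -0.03, with summed signals of 73413 with CeCl3 and 71411 in the control, and microglial genes -0.05, with 4692 and 5021. Of the 10 detected neuron genes 5 were above 0 and 5 below, from -0.05 to 0.45, with a median of 0.01. By interval 3 were above 0 and 0 below, against 10.5% and 14.8% of all named genes. Their summed signals were 47526 (CeCl3) and 46411 (control). The brightest were Slc1a3 at -0.03 and Aldoc at 0.21 for astrocytes, Cx3cr1 at -0.15 and C1qc at -0.30 for microglia, and Camk2a at 0.02 beside Syt1 for neurons. Endothelial genes had a median of -0.11 (7008 and 7307), choroid plexus genes -0.20 (16468 and 15842) and meningeal genes -0.18 (10928 and 11198). Their brightest were Ly6c1 at -0.21 and Itm2a at 0.09, Ttr at 0.09 and Clic6 at -0.02, and Igf2 at 0.08 and Ptgds at -0.15. Of 8 detected liver genes 6 were above 0 and 2 below, 4 and 2 of them by interval, with a median of 0.61, or 0.35 with the 2 genes seen on 1 array held at their bound. They ran from -1.71 for Mup3 to 1.98 for Apoa2, with Serpina1b at -0.41, and Alb, the most abundant liver transcript, was not detected. In tissue RNA, fewer cells of a type and less RNA per cell cannot be told apart.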

How the data were processed

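The 2 samples were grouped by their labels (1 CeCl3, 1 control). Probe values are the authors' deposited intensity, which is background-subtracted (27.1% of values lie below 0 on each array) and nearly equal in quantiles between the arrays. The deposited detection p-value of each probe, per the file headers, is unadjusted. Per the submitters' processing notes the software was BeadStudio, with settings not given in the sources used here. A second deposited table, the series matrix, holds intensity values with medians of 15.9 (CeCl3) and 14.2 (control), whose scale is otherwise known from the values alone. The member beads numbered 22 to 102 (CeCl3) and 20 to 141 (control) per probe, and the number of arrays limits the precision.

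Signals were corrected with normexp (limma 3.58.1, R 4.3.3; background inferred through the detection p-values, offset 16), quantile normalized and put on the log2 scale. The offset pulls differences of dim probes towards 0. A gene is its brightest probe detected on at least 1 array. Bead standard errors were carried to the log2 scale, 1.96 of them on either side. The files do not say whether these errors are on the scale of the intensities. A probe detected on 1 array alone has a fold bound against the lowest detected signal of the other array (log2 5.87 for CeCl3, 6.14 for control), which leaves out bead error. The steps were also run on simulated arrays, with 2-fold differences set in genes with a probe over an intensity of 500. Noise was drawn from the deposited bead errors. That run therefore cannot check scatter between arrays or the scale of the bead errors. Named were all members, pathway genes seen on both arrays with an interval apart from 0 and a difference of 0.5 or more (at most 4 per list), and of each marker list the 2 brightest and those past 2-fold. Members and lists were chosen with earlier results of these data known. Promoters are from RefSeq (GRCm38.p6).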

Additional observations from a re-analysis of the deposited data

How the results depend on the processing

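All 12 alternatives kept the counts of genes past 2-fold at 0. At 1.5-fold, the 1 gene lower became 0 with an offset of 50, 0 with differences taken from the median of all named genes, 4 in the quantile normalized series matrix and 0 in the series matrix as deposited. The 0 genes higher became 1 with median centring, the quantile normalized matrix, the mean of probes and the subtracted median, and 3 in the matrix as deposited. With the mean of probes, 4 genes had intervals above 0 and 5 below, against 1 and 8, and with the subtracted median 2 lay above. With bead errors rescaled to the series matrix, an alternative chosen after seeing the data, 2 lay above and 7 below, without Sod3. Taking the mean ends the calls of Gstk1, Gstp1, Prdx2 and Gstm2, the last reversed at 0.19. In the matrix as deposited, not normalized between arrays, 16 genes lay below 0, not 28, and the median of the 42 was 0.086. The family medians there were 0.028 for dismutases and catalase, 0.16 for glutathione synthesis, 0.044 for transferases, 0.11 for glutathione peroxidases, -0.017 for peroxiredoxins, -0.35 for thioredoxins and 0.44 for the Nrf2 axis. The thioredoxin median was -0.63 in the quantile normalized matrix and -0.14 with no filter on dim probes. The Nrf2 axis median of 0.21 was 0.10 at a detection p under 0.05 and 0.085 with no filter, both of which add dim genes. The matrix gives no bead errors, so it has no interval counts. Of 504 comparisons of a single gene with its value under an alternative, the sign turned in 16, over 13 genes, 12 of them in the matrix as deposited; Gstm2 was the 1 such gene with an interval apart from 0. The move stayed within the bead interval in 500. Part of the 504 was fixed in advance. A detection p under 0.05, detection on both arrays, no filter on dim probes and RefSeq probes alone kept each gene's brightest probe. Rescaled bead errors changed the intervals alone. Under each of these the differences of the 42 genes could not move, so those comparisons do not bear on stability. Dim probes (Gss, Cat, Gstt2) have intervals too wide to show differences of the size seen here. The p-values, fits and blocks of a replicated design could not be had with 1 array per group. No paired analysis was possible because each group has 1 array.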
